A study of Mus musculus with 8 samples.

Results

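The genes described here encode melanin enzymes and melanosome proteins, which the retinal pigment epithelium (RPE) shares with the melanocytes of the choroid. They are Tyr, Tyrp1, Dct, Pmel, Mlana, Oca2, Slc45a2, Slc24a5, Gpr143 and Rab38, and were taken by symbol from the 31053 Ensembl gene identifiers of the count tables. All 10 were found, and all 10 passed the filter on low counts with at least 15.8 CPM (counts per 1000000 gene counts, scaled by TMM normalization) in every library of both genotypes. Gene expression was measured in RPE eyecups of C57/Bl6 mice at P11, postnatal day 11, by QuantSeq, a library type whose reads start near the poly(A) tail of a transcript. There were 4 libraries from wild-type littermate controls (Bbs8+/+) and 4 from Bbs8 knockout mice (Bbs8-/-), with no treatment in either group. Bbs8, annotated as Ttc8, encodes a subunit of the BBSome, a complex that moves membrane proteins in and out of cilia.

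The knockout was not restricted to the RPE, so the other cells of the eyecup and the neighbouring photoreceptors carried it too. An eyecup prepared by removing cornea, lens, retina and optic nerve holds choroid and sclera beside the RPE, and the labels do not separate RPE reads from melanocyte reads. In such bulk samples, fewer cells of a type and less RNA per cell cannot be told apart.

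Melanin is made inside melanosomes, organelles related to lysosomes. Tyrosinase and the related enzymes Tyrp1 and Dct turn tyrosine into pigment, PMEL fibrils inside the organelle receive it, and transporters of the melanosome membrane set the ion content and pH in which the enzymes work. The transcription factor Mitf switches on many of these genes in both pigment cell lineages. The RPE pigments before birth, whereas choroidal melanocytes derive from the neural crest and pigment around and after it. In the eye, melanin absorbs stray light behind the photoreceptors, and loss of several of these genes causes albinism.

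Total gene counts per library were 2159295 to 2884983 in Bbs8+/+ and 1636725 to 2179761 in Bbs8-/-, and 3 counts corresponded to 1.04 to 1.83 CPM. Ttc8 was at 14.6 to 21.6 CPM in Bbs8+/+ and at 2.29 to 9.70 CPM in Bbs8-/-, without overlap. The edgeR quasi-likelihood test compared 13813 genes, of which 1.14% were lower and 1.10% were higher in Bbs8-/- at a false discovery rate (FDR) of 0.05, adjusted over all of them.

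Among the 10 melanin and melanosome genes, 5 were lower in Bbs8-/- at FDR 0.05 and 0 were higher, against 1.14% and 1.10% of all tested genes, or 2.24% in either direction. The 5 were Tyrp1, Slc45a2, Mlana, Dct and Pmel, with falls of 15.7% to 34.3%. Tyr, Oca2, Slc24a5, Gpr143 and Rab38 did not pass the test. At an unadjusted p under 0.05, 7 of the 10 were lower and 0 were higher, against 6.60% and 6.38% of all tested genes. For 7 of the 10, every Bbs8-/- library lay below every control, against 3.76% of all tested genes, and for 0 every Bbs8-/- library lay above, against 3.62%. The median log2 fold change of the 10 was -0.25 beside -0.0041 for all tested genes, and 9 of them lay below 0, as did 50.5% of all. Together the 10 genes took 1.43% to 1.498% of all gene counts in the Bbs8+/+ libraries and 1.19% to 1.24% in the Bbs8-/- libraries. Since Dct gave 69.8% to 72.4% of these counts in each library, that sum mostly follows Dct.

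**Figure D1:**
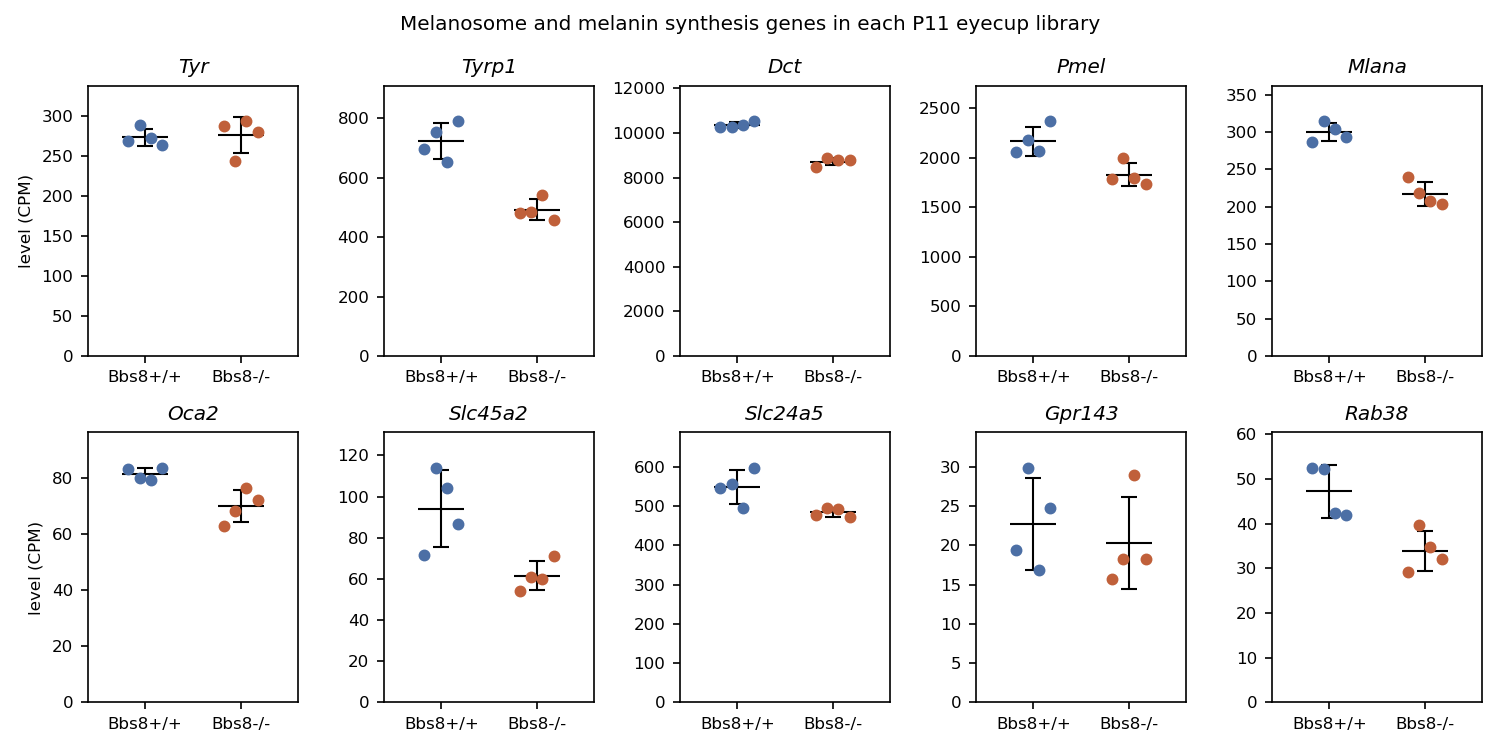
Level in CPM (TMM-normalized, y axis from 0) of each melanin or melanosome gene in the 4 Bbs8+/+ and the 4 Bbs8-/- libraries, with 1 point per library, the mean as a horizontal line and 1 SD as error bar. The points of the genotypes do not overlap for Tyrp1, Dct, Pmel, Mlana, Oca2, Slc45a2 and Rab38, and they overlap for Tyr, Slc24a5 and Gpr143.

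Tyrosinase (Tyr), the rate-limiting enzyme of melanin synthesis, overlapped between the genotypes and did not pass the test. The gene lies on chromosome 7 from 87424771 to 87493512 on the reverse strand (mm10, as for all positions here). Its level was 268, 288, 272 and 263 CPM in Bbs8+/+ replicates 1 to 4 and 287, 244, 293 and 279 CPM in Bbs8-/- replicates 1 to 4. The lowest and the highest library both belonged to Bbs8-/-, and the other libraries of both genotypes lay between them. Its log2 fold change (Bbs8-/- over Bbs8+/+) of 0.02 was smaller than its standard error (SE) of 0.07 (edgeR quasi-likelihood FDR 0.955, n = 4 per genotype).

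Tyrp1, which oxidises an indole intermediate on the way to brown-black eumelanin, showed the lowest p-value of the 10. It lies on chromosome 4 from 80834123 to 80851719. The Bbs8+/+ libraries held 696, 753, 654 and 790 CPM, and the Bbs8-/- libraries 482, 486, 541 and 457 CPM. Every Bbs8-/- library lay more than 100 CPM below the lowest control. Tyrp1 fell by 32.1%, a log2 fold change of -0.56 with an SE of 0.06 (edgeR quasi-likelihood FDR 5.55e-14), and ranked 16th by p among all tested genes. The difference was therefore far larger than the spread between replicates (723.5 ± 60.2 against 492 ± 35.4 CPM, SD, n = 4 each).

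Dct, the dopachrome tautomerase that supplies the substrate of Tyrp1, was lower by a smaller fold with a narrower spread. It lies on chromosome 14 from 118012790 to 118052244 on the reverse strand. Its level was 10263, 10269.9, 10379.8 and 10532 CPM in Bbs8+/+ and 8469, 8866, 8770.5 and 8779 CPM in Bbs8-/-. The controls spanned less than 300 CPM, and the gap between the genotypes was wider than either group's range. Dct fell by 15.8% (log2 fold change -0.25, SE 0.03, edgeR quasi-likelihood FDR 2.64e-11), ranking 22nd among all tested genes.

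Ratios of the 3 enzymes within a library, which do not depend on how libraries are scaled, set these levels against each other. Tyrp1 counts were 2.598, 2.62, 2.41 and 3.00 times the Tyr counts in the Bbs8+/+ libraries and 1.68, 1.99, 1.85 and 1.64 times in the Bbs8-/- libraries, without overlap. The ratio of Dct to Tyr was 35.7 to 40.02 in Bbs8+/+ and 29.5 to 36.4 in Bbs8-/-, where replicate 2, the library with the least Tyr, reached into the control range. Tyr was taken as the reference after its values had been seen, so these ratios are a description.

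Short stretches from the promoters show what the genes share in sequence whether or not they changed. RefSeq promoter windows (GRCm38.p6, 250 bases before to 50 bases after the start) were matched by symbol for 5 of the 10 genes, namely Tyr, Tyrp1, Dct, Oca2 and Slc24a5. They were searched on both strands for CATGTG, the core of the element that Mitf binds, for TCATGTG, which contains that core, for the E-box CACGTG, and for TAATCC, a core bound by Otx2. The stretches below surround the CATGTG or TCATGTG match nearest the start, are written 5′ to 3′ on the strand of the gene, and have the match in capitals. A match in the reverse direction reads CACATG or CACATGA.
Tyr: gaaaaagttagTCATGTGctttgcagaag
Tyrp1: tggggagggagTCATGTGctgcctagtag
Dct: tgcacttagggTCATGTGctaacaaagag
Oca2: tgagcttgctaCACATGgctggaatttt
Slc24a5: aggagactgctCACATGAttcagc

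The stretches lie at chr7:87493517-87493545 for Tyr, chr4:80834155-80834183 for Tyrp1, chr14:118052380-118052408 for Dct, chr7:56239562-56239589 for Oca2 and chr2:125068103-125068126 for Slc24a5. In Tyr, Tyrp1 and Dct the match runs in the direction of the gene, and in Oca2 and Slc24a5 in the reverse one. The match began at base -22 in Tyr, -47 in Tyrp1 and -151 in Dct, counted from the base before the RefSeq start as -1. The RefSeq start of Tyrp1 lies inside the GENCODE span given above for the gene, so that its stretch lies inside that span too. CATGTG occurred in 5 of the 5 windows and in 14.2% of all 32851 promoter windows, and TCATGTG in 4 of the 5 and in 3.77% of all. CACGTG occurred in 0 of the 5 windows and in 7.15% of all. TAATCC occurred in 2 of the 5, those of Tyrp1 and Dct, and in 7.06% of all. Tyr, which did not pass the test, carried the same TCATGTG as Tyrp1 and Dct, which fell. A match of letters is not evidence of binding.

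For the enzyme without a detected change and the most counted gene, the whole 250 bases before the start follow, with the TCATGTG and TAATCC matches in capitals. They are at chr7:87493513-87493762 for Tyr and chr14:118052247-118052496 for Dct, both on the reverse strand. The Tyr stretch holds a single TCATGTG close to the start. The Dct stretch holds TCATGTG once in each direction, the reverse one written CACATGA, followed by TAATCC.
Tyr: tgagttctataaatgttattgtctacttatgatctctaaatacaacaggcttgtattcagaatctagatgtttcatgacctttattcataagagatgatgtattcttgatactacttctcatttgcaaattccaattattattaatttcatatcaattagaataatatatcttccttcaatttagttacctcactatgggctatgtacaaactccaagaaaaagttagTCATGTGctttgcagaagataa
Dct: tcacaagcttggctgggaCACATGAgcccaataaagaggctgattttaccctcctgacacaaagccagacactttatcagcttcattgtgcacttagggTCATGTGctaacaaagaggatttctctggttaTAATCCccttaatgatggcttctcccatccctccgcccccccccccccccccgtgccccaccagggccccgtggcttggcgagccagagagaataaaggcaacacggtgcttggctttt

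Both structural proteins were lower in Bbs8-/-. Pmel, which forms the amyloid fibrils on which melanin is laid down, lies on chromosome 10 from 128704195 to 128720238. Its level was 2055, 2183, 2067 and 2370.3 CPM in Bbs8+/+ and 1788, 1999, 1798 and 1734 CPM in Bbs8-/-. The highest Bbs8-/- library, replicate 2, came within 60 CPM of the lowest control, and the genotypes did not overlap. Pmel fell by 15.7% (log2 fold change -0.25, SE 0.04, edgeR quasi-likelihood FDR 2.51e-05). Its 3′ end lies inside the span of Dgka on the opposite strand, and whether reads were counted by strand was not stated. Dgka was at 14.2 to 27.1 CPM in all 8 libraries, far below Pmel, with a log2 fold change of -0.21 (edgeR quasi-likelihood FDR 0.791). The level of Dgka does not show whether reads shared with Pmel were left out as ambiguous.

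Mlana, a melanosome membrane protein that takes part in the maturation of PMEL, lies on chromosome 19 from 29697824 to 29708634. Its level was 287, 315, 304 and 293 CPM in Bbs8+/+ and 239.6, 218, 208 and 204 CPM in Bbs8-/-. All 4 Bbs8-/- libraries lay clearly below the controls, with replicate 1 the nearest. Mlana fell by 27.6% (log2 fold change -0.47, SE 0.07, edgeR quasi-likelihood FDR 7.54e-07), a larger fold than Pmel, although the difference between these folds was not tested.

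Of the 3 transporters of the melanosome membrane, 1 passed the test. Slc45a2, which helps to keep melanosomes from becoming too acidic for tyrosinase, lies on chromosome 15 from 11000721 to 11029233. Its level was 71.5, 114, 104 and 86.9 CPM in Bbs8+/+ and 54.0, 61.1, 60.1 and 71.0 CPM in Bbs8-/-. The controls were widely spread, and Bbs8+/+ replicate 1 and Bbs8-/- replicate 4 almost touched. Slc45a2 fell by 34.3%, the largest percentage among the 10 in the fit of all libraries (log2 fold change -0.61, SE 0.12, edgeR quasi-likelihood FDR 0.000309). Tyrp1 fell further than Slc45a2 without Bbs8+/+ replicate 2 (-0.54 against -0.50) and without Bbs8+/+ replicate 3 (-0.60 against -0.56).

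Oca2, a chloride channel that raises melanosome pH, lies on chromosome 7 from 56239760 to 56536518. It was at 83.2, 80.2, 79.4 and 83.8 CPM in Bbs8+/+ and at 63.1, 68.4, 76.6 and 72.4 CPM in Bbs8-/-. The genotypes did not overlap, but the fit across all genes gave a log2 fold change of -0.22 with an SE of 0.12 (edgeR quasi-likelihood FDR 0.441), and no call. It was counted 104 to 240 times per library.

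Slc24a5, an exchanger of potassium, sodium and calcium ions, lies on chromosome 2 from 125068124 to 125088677. It was at 546, 556, 495 and 598 CPM in Bbs8+/+ and at 477, 496, 493 and 472 CPM in Bbs8-/-. Bbs8+/+ replicate 3 fell among the Bbs8-/- libraries, and the other 3 controls lay above all of them. The log2 fold change of -0.18 (SE 0.06, edgeR quasi-likelihood FDR 0.0843) missed the threshold, and without Bbs8+/+ replicate 3 it was -0.23 with an edgeR quasi-likelihood FDR of 0.0187. Its 3′ end lies inside the span of Myef2 on the opposite strand, which was at 20.01 to 30.3 CPM with a log2 fold change of -0.05 (edgeR quasi-likelihood FDR 0.955). The level of Myef2 likewise does not show whether shared reads were left out as ambiguous.

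The receptor and the trafficking gene did not pass the test. Gpr143, the ocular albinism gene, encodes a receptor that resides in melanosomes and lies on the X chromosome from 152781921 to 152808646. It was at 19.4, 29.9, 16.8 and 24.8 CPM in Bbs8+/+ and at 15.8, 18.3, 28.9 and 18.2 CPM in Bbs8-/-, with full overlap (log2 fold change -0.16, SE 0.22, edgeR quasi-likelihood FDR 0.833). At 26 to 76 counts per library, it was the least precise of the 10. Of 5 sex-linked genes, 1 was lower (Xist) and 3 were higher (Ddx3y, Uty and Kdm5d) at edgeR FDR 0.05, and Eif2s3y did not pass. Xist was at 640.5 to 746 CPM in Bbs8+/+ and 569.99 to 625 CPM in Bbs8-/- and the Y-linked Ddx3y was at 36.0 to 41.6 and 59.0 to 67.2 CPM. Xist and Ddx3y were counted in every library of both genotypes, so these genes did not mark any library as 1 sex. The part of sex in the level of Gpr143 and of the other pigment genes was not tested. Xist passed the edgeR test (log2 fold change -0.23, FDR 0.00646), but not without Bbs8+/+ replicate 1 (-0.19, FDR 0.102) or without Bbs8-/- replicate 3 (-0.21, FDR 0.0513).

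Rab38, a small GTPase that directs tyrosinase-family enzymes to maturing melanosomes, lies on chromosome 7 from 88430273 to 88491572. It was at 52.6, 52.3, 42.5 and 41.9 CPM in Bbs8+/+ and at 29.1, 39.7, 34.9 and 32.2 CPM in Bbs8-/-, without overlap. Its log2 fold change of -0.47 resembled that of Mlana, but the SE of 0.16 was larger at 48 to 133 counts per library, and the edgeR quasi-likelihood FDR was 0.0988.

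The wider pigment pathway was examined with 4 lists of 52 genes, of which 50 were tested. Of these, 3 were lower and 1 was higher at FDR 0.05, all 4 in the list of regulators, and the median log2 fold change of the 50 was -0.03. Among genes for sorting of cargo to melanosomes (the AP-3, BLOC and HPS complexes, Rab32, Lyst and others), 0 of 21 passed the edgeR test, 0 were lower and 1 was higher at an unadjusted p under 0.05 (Hps3, log2 fold change 0.36, edgeR quasi-likelihood FDR 0.349), and the median was 0.01. Among 8 genes that carry melanosomes along the cytoskeleton, 0 passed the edgeR test, 3 were lower and 2 were higher at an unadjusted p under 0.05, and the median was -0.16. The share of all tested genes at that unadjusted p was 6.60% lower and 6.38% higher. Myo5a, the motor that moves melanosomes on actin, had a log2 fold change of -0.21 (edgeR quasi-likelihood FDR 0.0831), and its adaptor Mlph had -0.19 (edgeR quasi-likelihood FDR 0.282). Myrip, which links melanosomes to a different myosin in the RPE, had 0.22 (edgeR quasi-likelihood FDR 0.306), and the small GTPase Rab27b 0.59 (edgeR quasi-likelihood FDR 0.363). Among 8 other melanosome proteins 0 passed the edgeR test, 2 were lower and 0 were higher at an unadjusted p under 0.05, and Cd63, which is shared with late endosomes, was at -0.01 (SE 0.04, edgeR quasi-likelihood FDR 0.976).

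**Figure D2:**
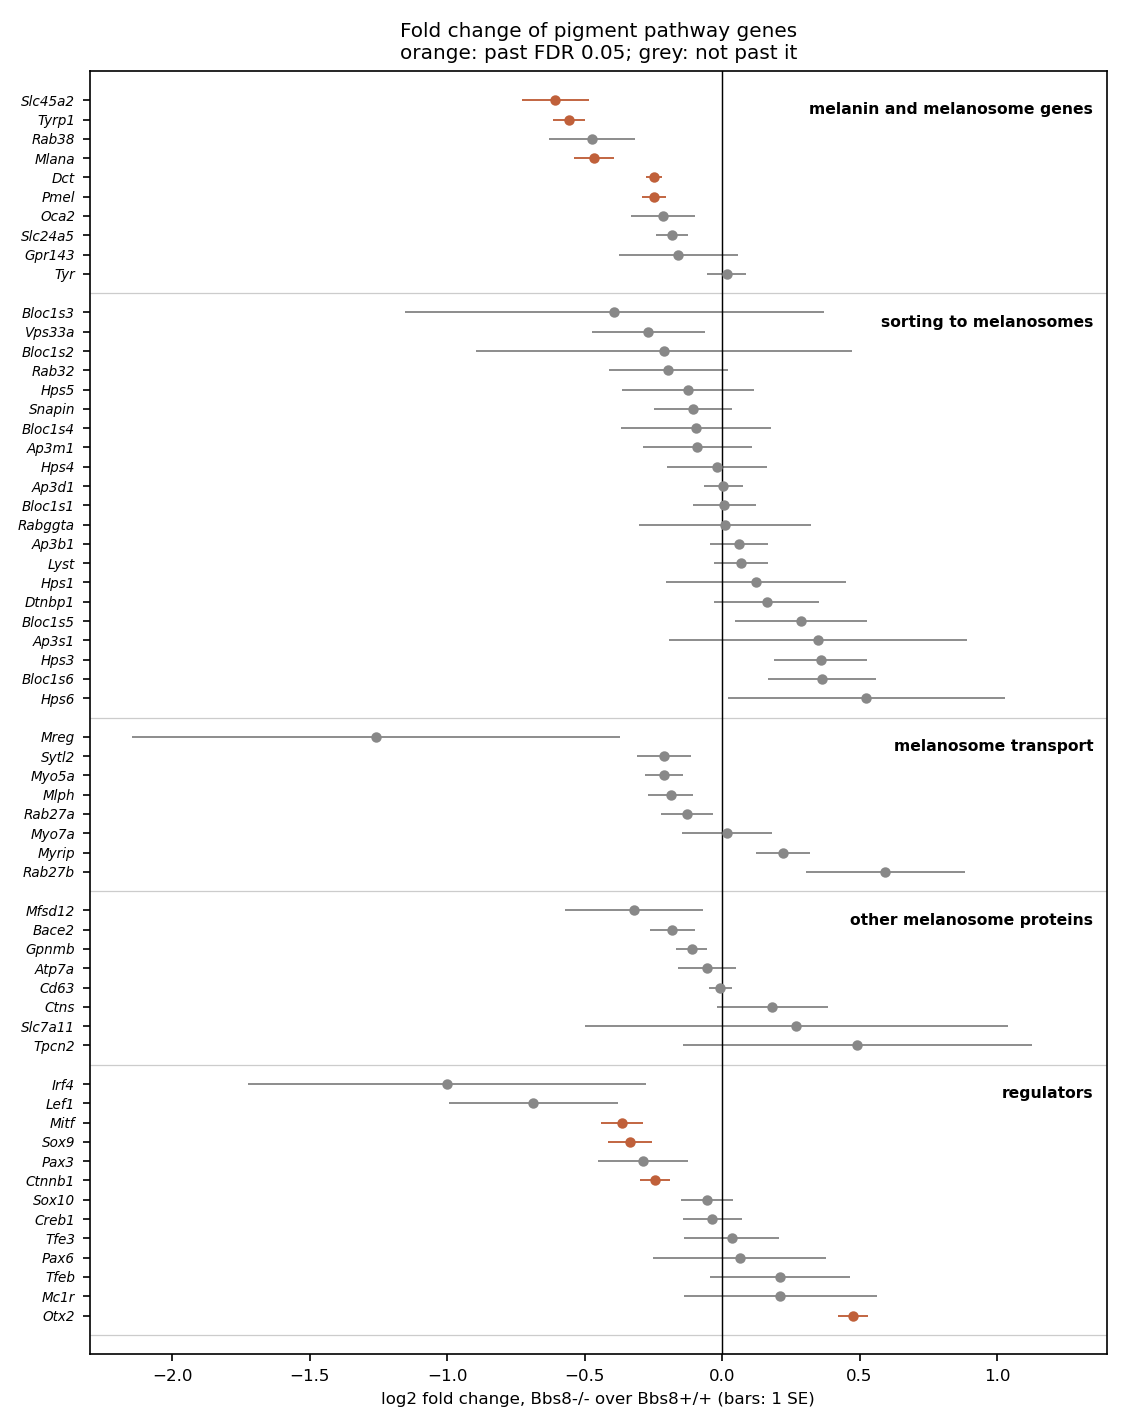
Log2 fold change of Bbs8-/- over Bbs8+/+ (x axis) with 1 SE as bar for each tested gene of the 10 melanin and melanosome genes and of the 4 wider lists, 1 gene per line. Orange points passed edgeR FDR 0.05: 5 genes of the first group, all below 0, and Mitf, Sox9, Ctnnb1 (below 0) and Otx2 (above 0) among the regulators.

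The regulators that passed the test went in both directions. Mitf, the basic helix-loop-helix factor of the pigment lineages, was at 257, 280.3, 299 and 235 CPM in Bbs8+/+ and at 233, 205, 213 and 182 CPM in Bbs8-/-. Bbs8+/+ replicate 4 and Bbs8-/- replicate 1 differed by about 2 CPM, and the groups did not overlap. Mitf fell by 22.3% (log2 fold change -0.36, SE 0.08, edgeR quasi-likelihood FDR 0.000670). Sox9, which cooperates with Mitf and Otx2 on RPE genes, was at 211 to 241 CPM in Bbs8+/+ and 168 to 180.1 CPM in Bbs8-/-, and fell by 20.7% (log2 fold change -0.33, edgeR quasi-likelihood FDR 0.00429). Without Bbs8+/+ replicate 2, its highest library, Sox9 lost the call with a log2 fold change of -0.28 (edgeR quasi-likelihood FDR 0.0671). Ctnnb1, which encodes beta-catenin of the canonical Wnt pathway, was at 659.8 to 708 CPM in Bbs8+/+ and 582 to 602 CPM in Bbs8-/-, and fell by 15.5% (log2 fold change -0.24, edgeR quasi-likelihood FDR 0.00207).

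Otx2, a homeodomain factor required for RPE identity and known to drive pigment genes together with Mitf, rose, whereas 5 of the 10 pigment genes fell. It was at 568, 551, 558 and 540.3 CPM in Bbs8+/+ and at 753, 799, 755 and 777 CPM in Bbs8-/-, and the gap between the genotypes exceeded the range of each. Otx2 rose by 39.1% (log2 fold change 0.48, SE 0.05, edgeR quasi-likelihood FDR 6.01e-12). At an unadjusted p under 0.05, 4 of the 13 tested regulators were lower and 1 was higher, against 6.60% and 6.38% of all tested genes. The 4 lower ones included Lef1, a transcription factor of the Wnt pathway, with a log2 fold change of -0.69 (edgeR quasi-likelihood FDR 0.303). The other 8 that did not pass the edgeR test were Irf4 (-1.001), Pax3 (-0.29), Sox10 (-0.05), Creb1 (-0.04), Tfe3 (0.04), Pax6 (0.07), Tfeb (0.21) and Mc1r (0.21), with FDR from 0.476 to 0.963. Irf4 was counted only 0 to 9 times per library. Tfec, a relative of Mitf in the RPE, and Usf1 stayed below the filter on low counts.

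**Figure D3:**
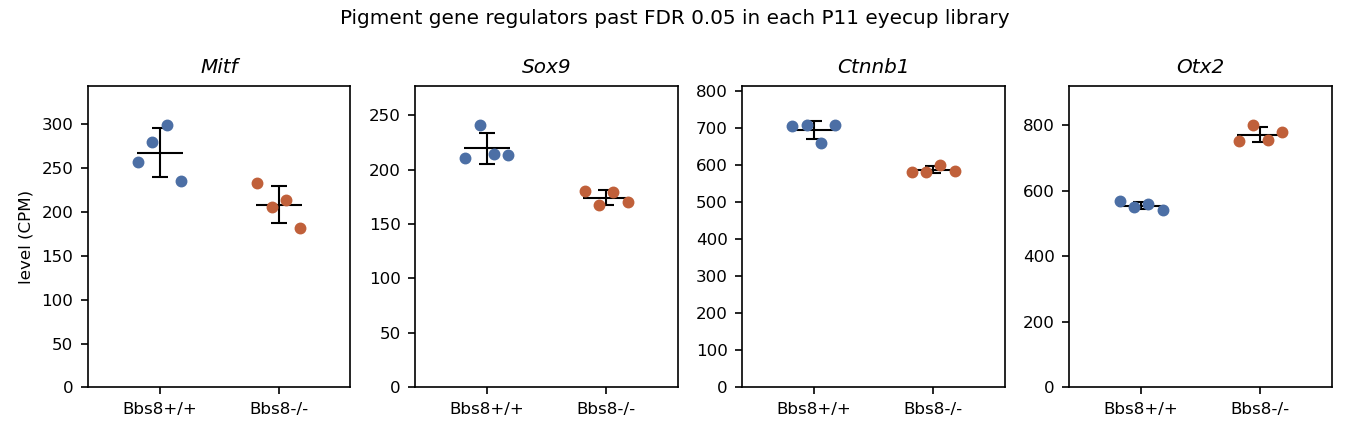
Level in CPM (y axis from 0) of the 4 pigment gene regulators past FDR 0.05 in each Bbs8+/+ and Bbs8-/- library, with 1 point per library, the mean as a horizontal line and 1 SD as error bar. Mitf, Sox9 and Ctnnb1 lie lower in all 4 Bbs8-/- libraries, and Otx2 lies higher, at 753 to 799 CPM against 540.3 to 568 CPM.

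Because the pigment genes are shared by 2 cell types, their levels were set beside markers of each. Of 12 RPE markers, 0 passed the edgeR test, 2 were lower and 5 were higher at an unadjusted p under 0.05, and the median log2 fold change was 0.09. The 5 were Stra6, Ttr, Mertk, Rlbp1 and Slc16a8, and for 3 of the 12, Stra6, Ttr and Rlbp1, every Bbs8-/- library lay above every control, against 3.62% of all tested genes. The 2 lower ones were Rpe65 and the potassium channel gene Kcnj13, which had -0.28 (edgeR quasi-likelihood FDR 0.0640). Rpe65, the retinoid isomerase of the visual cycle, had -0.13 (edgeR quasi-likelihood FDR 0.0843) and Rlbp1, the retinaldehyde-binding protein, 0.12 (edgeR quasi-likelihood FDR 0.299). Best1, a chloride channel of the RPE, was near 0, with no counts in 1 library. The summed level of the RPE markers was 17536 to 18551 CPM in Bbs8+/+ and 18768 to 19117 CPM in Bbs8-/-. Ttr, the transthyretin gene, gave 58.3% to 62.1% of it in each library, and without Ttr the sum was 7047 to 7306 CPM in Bbs8+/+ and 7122 to 7380.3 CPM in Bbs8-/-, with overlap. Of 7 melanocyte markers 1 was lower, Ednrb, the endothelin receptor of the neural crest lineage, which fell from 244 ± 3.87 to 180.4 ± 5.79 CPM (SD, n = 4 each; log2 fold change -0.43, edgeR quasi-likelihood FDR 1.97e-05). The median log2 fold change of the 7 was -0.29, 6 of them lay below 0, and for 3, Ednrb, Erbb3 and Pax3, every Bbs8-/- library lay below every control, against 3.76% of all tested genes. At an unadjusted p under 0.05, 2 were lower and 0 were higher, against 6.60% and 6.38%. The markers that did not pass the edgeR test had log2 fold changes of -1.26 for Erbb3 (FDR 0.261), -0.98 for Foxd3 (FDR 0.541), -0.29 for Pax3 (FDR 0.476), -0.05 for Sox10 (FDR 0.878), -0.03 for Kit (FDR 0.974) and 0.21 for Mc1r (FDR 0.871). Erbb3 was counted only 2 to 19 times and Foxd3 only 1 to 14 times per library. The summed melanocyte markers were at 460.4 to 467 CPM in Bbs8+/+ and 360.2 to 397 CPM in Bbs8-/-, and without Ednrb at 212 to 227 and 178 to 222 CPM.

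Measured against the summed RPE markers of the same library, 10 of the 10 pigment genes had a lower mean log2 ratio in Bbs8-/-, with a median difference of -0.31, and 8 lay lower without overlap. On this scale 59.8% of the 12850 tested genes with a count in every library were lower, 5.66% were lower without overlap, and their median was -0.07. Without Ttr among the RPE markers, 9 of the 10 pigment genes were lower with a median of -0.26, and 8 lay lower without overlap, against 52.5% and 3.98% of those genes. Tyrp1 counts were 0.0353 to 0.0451 of the RPE marker counts in Bbs8+/+ and 0.0244 to 0.0287 in Bbs8-/-. Slc24a5, which overlapped on the CPM scale, did not overlap on this one, at 0.0267 to 0.0341 against 0.0251 to 0.0262. Tyr had a difference of -0.05 with overlap.

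Measured against the summed melanocyte markers instead, 4 of the 10 were lower and the median difference was 0.03. Since the summed melanocyte markers were themselves lower in Bbs8-/-, the median of the 12850 genes on this scale was 0.27, with 18.5% of them lower and 0.490% lower without overlap. The ratio of Dct was 22.01 to 22.6 in Bbs8+/+ and 22.2 to 23.5 in Bbs8-/-, and that of Pmel 4.42 to 5.08 and 4.51 to 5.04. Tyrp1 alone was lower without overlap, at 1.42 to 1.69 in Bbs8+/+ and 1.19 to 1.37 in Bbs8-/-. This scale rested on Ednrb, the most counted gene of the list, which fell itself. Without Ednrb, 9 of the 10 were lower, with a median of -0.13, and Tyrp1 and Rab38 lay lower without overlap. The 12850 genes then had a median of 0.12, with 33.2% lower and 1.11% lower without overlap. The share of each cell type in the falls was not tested.

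**Figure D4:**
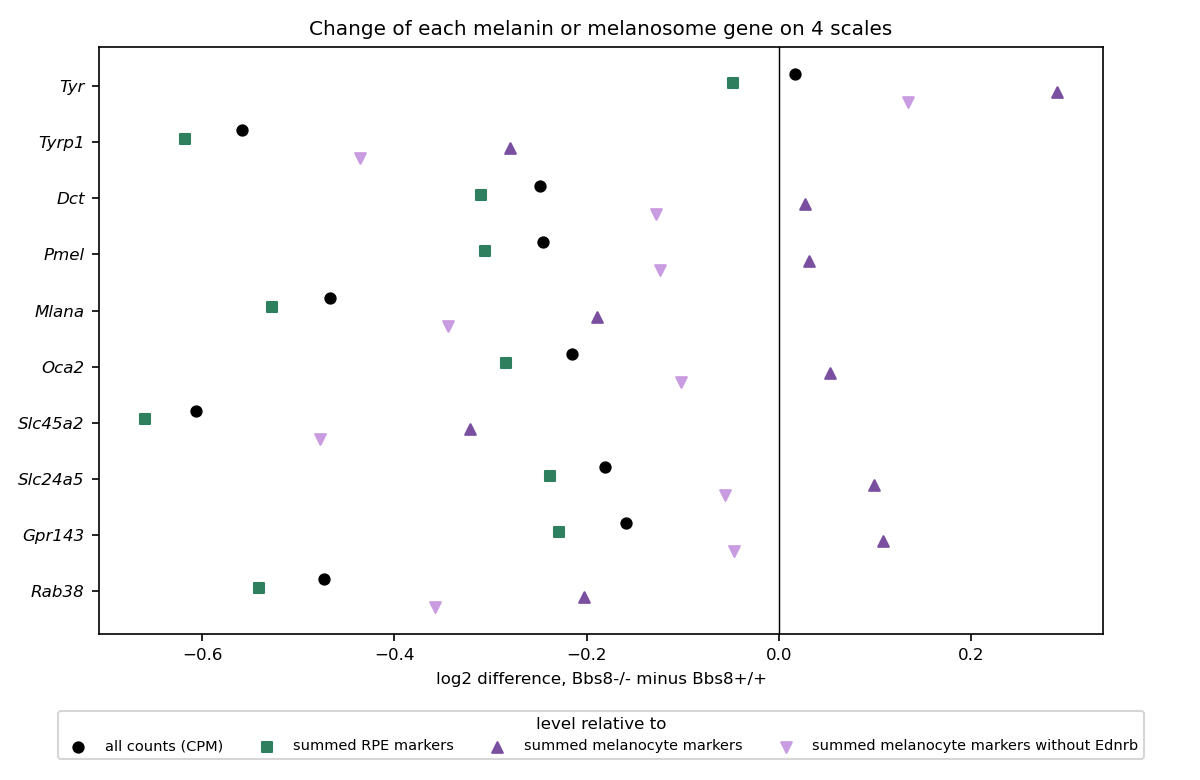
Log2 difference between Bbs8-/- and Bbs8+/+ (x axis) for each of the 10 genes on 4 scales: the fold change on all counts (circles), and the mean log2 ratio to the summed counts of RPE markers (squares), of melanocyte markers (upward triangles) and of melanocyte markers without Ednrb (downward triangles). Tyrp1, Mlana, Slc45a2 and Rab38 lie below 0 on all 4 scales, whereas Dct, Pmel, Oca2, Slc24a5 and Gpr143 lie above 0 relative to all melanocyte markers and below 0 on the other 3.

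Markers of 6 other tissues were examined in the same way, with 1.14% of all tested genes lower and 1.10% higher at FDR 0.05. Fibroblast markers summed to 34135 to 35885 CPM in Bbs8+/+ and 26774 to 27956 CPM in Bbs8-/-, with 3 of 6 lower and 0 higher at FDR 0.05. The 3 were the collagen genes Col1a1, Col1a2 and Col3a1, while the proteoglycan genes Dcn (log2 fold change 0.09, edgeR quasi-likelihood FDR 0.174) and Lum (0.12, edgeR quasi-likelihood FDR 0.631) did not pass, and Dcn was higher in every Bbs8-/- library than in every control. Schwann cell markers, whose lineage shares Sox10 with melanocytes, went from 387 to 442 CPM to 299 to 355 CPM, with 2 of 7 lower. Photoreceptor markers were at 402 to 455 and 282 to 346 CPM, with 2 of 8 lower. Lens markers were at 205 to 241 and 451 to 479 CPM, with 4 of 10 higher, at log2 fold changes of 2.74 to 4.19. Cryab, the most counted lens marker and the only 1 below 0, had -0.15 (edgeR quasi-likelihood FDR 0.484), so the sum understates those 4. Endothelium markers were at 618 to 653 CPM in Bbs8+/+ and 609 to 682 CPM in Bbs8-/-, with a median log2 fold change of 0.05. Skeletal muscle markers were at 1256 to 1393 and 1360.3 to 1478 CPM, with a median of 0.12 and 1 of 6 below 0. These lists had 0 of 6 genes each past the edgeR threshold and 1 of 6 and 0 of 6 lower and none higher at an unadjusted p under 0.05. Their part in the falls of the pigment genes was not tested.

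**Figure D5:**
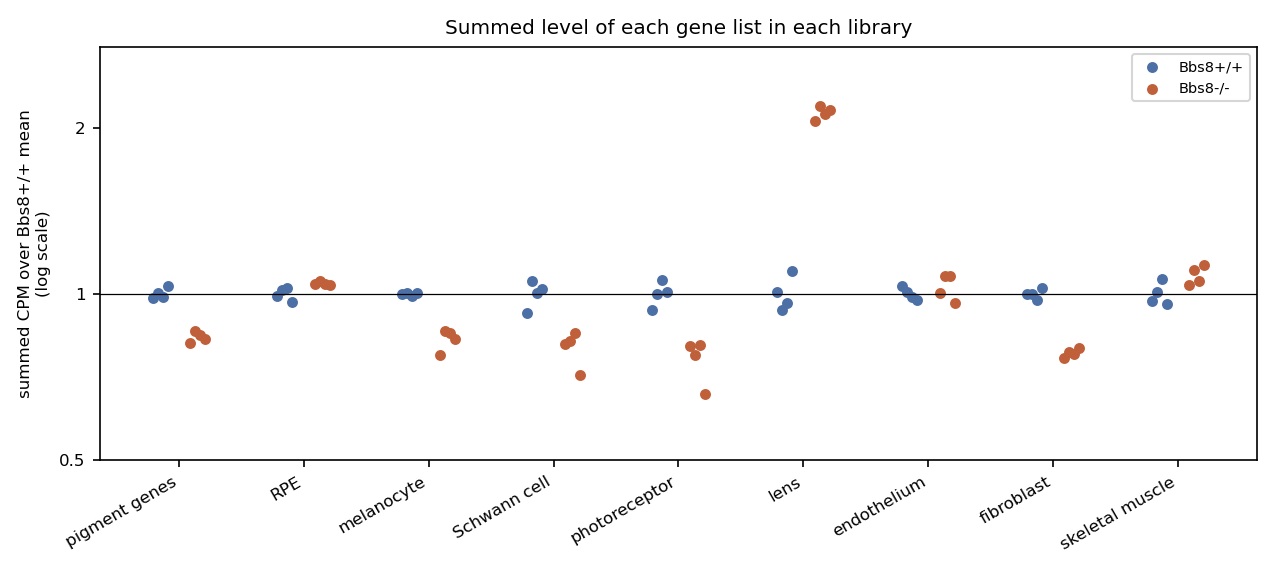
Summed CPM of each gene list in each library divided by the Bbs8+/+ mean of that list (y axis, log scale), for the 10 pigment genes and 8 lists of cell type markers, with 1 point per library. The pigment genes, melanocyte, Schwann cell, photoreceptor and fibroblast lists lie below 1 in all 4 Bbs8-/- libraries, the RPE and skeletal muscle lists lie slightly above 1, and the lens list lies near 2.

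Across the 8 libraries, the 10 genes were combined into the mean of their standardized log2 levels. This profile was 0.32 to 1.05 in the Bbs8+/+ libraries and -0.93 to -0.28 in the Bbs8-/- libraries, with Bbs8+/+ replicate 2 the highest and Bbs8-/- replicate 3 the nearest to the controls. Without Bbs8-/- replicate 3, the median log2 fold change of the 10 genes was -0.32 in place of -0.25. Against the mean of the other 9 genes, so that no gene was set beside itself, Pearson r over the 8 libraries was highest for Tyrp1 (0.98) and lowest for Tyr (-0.09). Among 6616 other genes with a mean of at least 20 CPM, the 6 most like the profile were Zkscan3 (r = 0.98), a zinc finger repressor of autophagy genes, Ctnnb1 (0.97), mt-Cytb of the respiratory chain (0.97), the fibrillar collagen gene Col3a1 (0.97), Enpp2, which encodes the secreted lysophospholipase autotaxin (0.95), and Ltbp4 of the extracellular matrix (0.94). All 6 were lower in Bbs8-/- at FDR 0.05 (edgeR quasi-likelihood), as 5 of the 10 pigment genes were, so r over all libraries holds the difference between genotypes. Within genotypes, after subtracting each group's mean, r was 0.50 to 0.82 for the 6. Since the 6 were chosen by r over these same libraries, which holds this part too, high values follow in part from that choice. For the pigment genes, each again against the mean of the other 9, r within genotypes had another order, from 0.98 for Gpr143 and 0.82 for Tyrp1 down to -0.03 for Tyr and -0.26 for Mlana. The correlations are descriptions over 8 libraries that differed in depth, with 1636725 to 2884983 gene counts.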

How the data were processed

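The authors trimmed QuantSeq FWD reads with BBDuk, aligned them with STAR to mm10 with an Ensembl gene model, and counted uniquely aligned reads per gene with htseq-count. The deposited values were raw counts, 1 file per library. Reads outside annotated genes and ambiguous reads were left out. The former were 42.1% to 43.4% of uniquely aligned reads in Bbs8+/+ and 44.1% to 44.4% in Bbs8-/-, without overlap. The part of this difference in the fold changes was not tested. No molecular identifiers were named. The SE of a fold change holds the spread between libraries as well as counting error. Symbols and positions came from GENCODE M21, in which 30934 of the 31053 identifiers were found.

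The 13813 genes that reached 1 CPM in 4 or more libraries entered edgeR 4.0.16 (R 4.3.3), with TMM normalization and a two-sided quasi-likelihood F test on genotype, with no covariate, and Benjamini-Hochberg adjustment over all tested genes. The SE was the size of the log2 fold change divided by the square root of F. The labels call the libraries biological replicates.

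Named were Ttc8, the 10 genes, list genes past FDR 0.05 (pathway and melanocyte lists), the 6 genes most like the mean profile, and sex-linked genes. The overlapping genes Dgka and Myef2, list genes not past the threshold and the ratios to Tyr were chosen after values were seen. The 10 genes and all lists were chosen with earlier results of these data known. Alternatives were RLE factors, library totals, filterByExpr, no filter, DESeq2 1.42.0, a likelihood ratio test, FDR 0.01, a replicate block, leaving out each library, and leaving out Gm42418 and mitochondrial genes. Removing Ednrb from the melanocyte markers and Ttr from the RPE markers was added after seeing the data.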

Additional observations from a re-analysis of the deposited data

Results flagged for a closer look

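The 4 libraries of each genotype were screened for 26 genes (Ttc8, the 10 melanin and melanosome genes, regulators and Ednrb past FDR 0.05, the 6 genes most like the mean profile, and 5 sex-linked genes). A library was taken to stand apart where its gap to the nearest other one, as a share of the range of the 4, exceeded Dixon's critical value, which chance does in about 1 of 20 sets. This held in 3 of 52 sets, where chance gives about 2.6. For Ctnnb1, Bbs8+/+ replicate 3 held 659.8 CPM while its group otherwise spanned 707 to 708 CPM. Ctnnb1 in Bbs8-/- replicate 3 was at 602 CPM, and the rest of that genotype at 582 to 585 CPM. For Sox9, Bbs8+/+ replicate 2 held 241 CPM, above 211 to 214 CPM in the remaining controls. None of the 20 sets from the 10 melanin and melanosome genes met this criterion.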

How the results depend on the processing

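Tyrp1, Dct, Pmel, Mlana and Slc45a2 kept their fall and their call in all 17 alternatives, with a highest edgeR or DESeq2 FDR of 3.51e-10, 0.000689, 0.00707, 5.44e-05 and 0.0221. Across the fits that each left out a library, 5 to 6 of the 10 genes were lower and 0 were higher, the median of the 10 ranged from -0.32 to -0.22, and 114 to 172 genes were higher and 101 to 150 lower, the fewest lower without Bbs8-/- replicate 1. Tyr ranged from -0.013 to 0.074 and Gpr143 from -0.39 to 0.0017, with reversed sign without Bbs8-/- replicate 3 and Bbs8+/+ replicate 2, respectively. At FDR 0.01, 93 genes were higher and 81 lower. The 10 genes over summed melanocyte markers changed from 0.016 to -0.14 on the log2 scale without Ednrb, and the RPE markers over the same sum from 0.34 to 0.18, since Ednrb itself fell. The 10 genes over summed RPE markers changed from -0.32 to -0.27 without Ttr. A replicate block left 134 genes higher and 129 lower, 5 of the 10 genes were lower, the median was -0.25, and no call among the 10 genes or the 4 regulators changed. Deviations of same-numbered libraries had correlations of -0.056 to 0.020 over 6626 genes, which gives no pairing. The lowest counts of the 10 genes were those of Gpr143, at 26 to 76 per library, and its SE of 0.22 was the largest.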
